A study of Rattus norvegicus with 2 samples.

Results

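The genes described here are the solute carriers of rat cortical neurons, the large superfamily of membrane proteins that move small molecules across cell and organelle membranes. Every gene whose rat symbol begins with Slc followed by a digit was taken, except Slc1a3 and Slc32a1, which gave 193 of the 9894 genes with a tag in either library. The 193 genes carry 192 symbols, since Slc44a1 was listed under 2 identifiers. One of them, Slc7a6os, has a name derived from its neighbour and is no transporter. It is counted in the totals and in no substrate class. Neurons from the somatosensory cortex of embryonic day 16 (E16) Sprague-Dawley rats were dissociated, electroporated with a Scramble control plasmid or with an RNAi plasmid against PIWIL1, an RNA-binding protein of the Piwi family, and cultured for 48 h in Neurobasal medium with fetal bovine serum and B27 supplement. The comparison asks which mRNAs change when PIWIL1 is knocked down. Each group is 1 library, and no sorting of these cells is described, so transfected and untransfected cells were probably read together. Nothing measures the spread between cultures. The targeted gene, Piwil1, is not analysed here, so no value of the target bears on the labels.

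Solute carriers are grouped into numbered families by sequence, and members of a family often share a kind of substrate. Some are exchangers and some couple uphill transport to sodium, proton or chloride gradients, which the sodium-potassium ATPase and the vacuolar proton ATPase maintain. In neurons they load synaptic vesicles with transmitter, clear transmitter and supply amino acids, glucose and metals. They also set intracellular chloride, and in mitochondria they exchange nucleotides, phosphate and metabolites across the inner membrane.

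Digital gene expression profiling was used, which reads a transcript as a 21-base tag starting at one of its CATG sites. Values given below as a pair are those with Scramble first and those with RNAi second. A gene's copies are the sum of its tags. TPM is here the gene's copies scaled to the clean tags of its library and is not divided by transcript length, so the order of genes given below is an order of tag copies and not of transcripts per length. The Scramble library had 3386865 clean tags with 1947600 copies on genes, and the RNAi library had 3303360 with 1865913. Solute carriers held 16588 copies (0.852% of the copies on genes) with Scramble and 15901 (0.852%) with RNAi. Intervals below are exact 95% intervals (Clopper-Pearson) and cover counting error only. The smallest level set as detectable was 3 copies, 0.886 TPM with Scramble and 0.908 TPM with RNAi.

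The tags that carry most of the results are printed 5′ to 3′, with the CATG cutting site in capitals. For the 2 adenine nucleotide carriers, the 2 vesicular glutamate transporters and the called genes listed in both libraries, the tag with the most copies was as follows.
Slc25a4: CATGgataaaaccagaccata
Slc25a5: CATGttgtataatagaccata
Slc17a7: CATGactatcatcgtacccat
Slc17a6: CATGtgaccataacccttgct
Slc11a2: CATGtggcactgtatgtggtg
Slc3a1: CATGcaagggcctcaggaatg
Slc25a14: CATGagggattttttgcactc
Slc6a15: CATGtggaaatacatttctcc
Slc26a6: CATGggtggatgccctgggac
Slc44a3: CATGgtggctcacaatcatct
Slc48a1: CATGtctccttctatggtagg
Slc39a5: CATGgggaaccccaggtcccc
Slc30a5: CATGtttattacaaagaccca
Slc27a1: CATGctgagccttgaaaaaaa
Slc25a33: CATGctatttaatttaaaaaa
The tags of Slc27a1 and Slc25a33 end in runs of 7 and 6 A, and those of Slc11a2 and Slc3a1 end in TG. These endings matter because tag ratios moved with the last bases across all genes. Over tags with at least 20 copies, the median log2 ratio of RNAi to Scramble was -0.67 for tags ending in TG and -0.67 for those ending in GT. It was 0.36 for tags ending in 6 A and 0.69 for those ending in 7 A, against -0.077 for all tags. Tags with 8 or more A at the end, which were higher still, held no solute carrier copies with Scramble and 0.0126% with RNAi, against 1.08% and 2.72% of the copies of all genes. Each gene is therefore given also after the median of its tags' end classes was taken out, called the corrected value.

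Solute carriers as a whole had nearly the same summed level in both libraries, 4898 TPM with Scramble and 4814 TPM with RNAi, a log2 ratio of -0.025. Of the 193 genes, 159 were listed in both libraries, 19 only with Scramble and 15 only with RNAi. Among the 159, the median log2 ratio was -0.14 (quartiles -0.48 and 0.23), against -0.085 (quartiles -0.44 and 0.23) for the 8899 genes of all kinds listed in both. Once corrected for the tag end, the medians were -0.086 for solute carriers and -0.085 for all genes. The share with a ratio below 0 was 56.6% of solute carriers and 56.6% of all genes.

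A gene was called when its FDR by Fisher's exact test was 0.05 or less and its log2 ratio of TPM was at least 0.58 in either direction. By this rule 6 solute carriers were lower in the RNAi library (3.11% of 193, against 5.97% of all genes) and 8 were higher (4.15%, against 2.96% of all genes). After the correction for the tag end, 4 were lower (2.07%, against 3.81%) and 5 were higher (2.59%, against 1.82%). With edgeR's TMM factors the split was 4 lower and 9 higher, where all 9894 genes had 459 lower and 398 higher. With DESeq2's size factors it was 5 lower and 9 higher, where all genes had 475 and 382. An FDR of 0.05 or less was reached by 21 solute carriers (10.9%), against 16.7% of all genes. Many solute carriers were shallow. Their median was 42 copies in both libraries together, against 86.5 for all genes, and 45 of them had fewer than 8 copies, the number that a gene seen in the Scramble library alone needed for a call. The test compares 2 libraries, not the conditions, and has no replicate check.

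**Figure D1:**
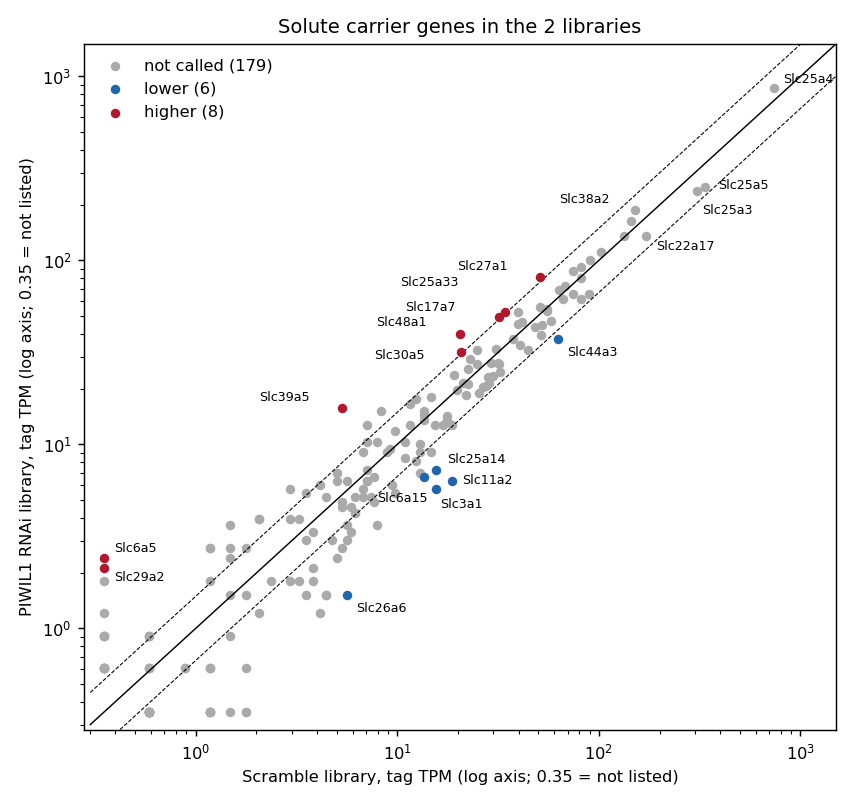
Level of each of the 193 solute carrier genes, as tag TPM, in the Scramble library (x axis) and the PIWIL1 RNAi library (y axis), both on log axes, with genes not listed in a library drawn at 0.35. The solid line is equality, the dashed lines are log2 ratios of 0.58 in either direction, and most points lie between them, with 6 genes called lower and 8 called higher.

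Mitochondrial carriers, the 33 genes of the SLC25 family, held the most copies, 48.2% of all solute carrier copies with Scramble and 48.6% with RNAi. Their summed level was 2363 TPM with Scramble and 2339 TPM with RNAi, a log2 ratio of -0.01 (-0.06 to 0.03) that was 0.080 with TMM factors. The flat sum covered opposite differences between its most copied members. Slc25a4, the adenine nucleotide translocase that exchanges ATP for ADP and is usual in muscle and nerve, had 2511 copies with Scramble and 2853 with RNAi (741 and 864 TPM). Slc25a5, its paralog of growing tissues, had 1144 and 824 copies (338 and 249 TPM). Slc25a3, the mitochondrial phosphate carrier, had 1037 and 789 copies. So Slc25a4 was higher and Slc25a5 and Slc25a3 were lower in the RNAi library. The log2 ratios were 0.22 (FDR 1.41e-08), -0.44 (FDR 1.08e-08) and -0.36 (FDR 1.86e-05) by Fisher's exact test, and all of them were below the 0.58 needed for a call. After correction they were 0.14, -0.49 and -0.21, and the corrected FDR of Slc25a3 was 0.087 by the same exact test.

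The balance between both translocases, chosen for description after the values were seen, shifted with these copies. Slc25a5 made up 31.3% (29.8 to 32.8) of their joint copies with Scramble and 22.4% (21.1 to 23.8) with RNAi. Their most copied tags, printed above, differ at 7 of 21 bases, and the most copied tags at the second site from the 3′ end differ at 4, so the paralogs were read from distinct tags. The tags within Slc25a4 did not move together. Its tag at the site nearest the 3′ end had 1680 and 2241 copies, its tag at the second site 597 and 420, and its tag at the third site 80 and 27. The tag at site 4 had 130 and 146 copies. The higher sum of the gene therefore lay mainly on its tag at the most 3′ site, while the tags at sites 2 and 3 were lower. The tags at sites 2 and 3 end in TT and GT, ends with median log2 ratios of -0.21 and -0.67 over all genes. In Slc25a5 the 3 tags that reached 20 copies were all lower, with log2 ratios of -0.43, -0.45 and -0.79, and in Slc25a3 the 4 such tags had ratios between -0.37 and -0.06.

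One mitochondrial carrier was called lower and another higher. Slc25a14, a member of the uncoupling protein branch that is found mainly in brain, had 53 copies with Scramble and 24 with RNAi, a log2 ratio of -1.11 (-1.87 to -0.39) with a Fisher exact FDR of 0.0155. It was called after correction as well, at -1.06. Most of its copies were on the tag printed above, which had 41 and 18 copies. Slc25a33, a pyrimidine nucleotide carrier, had 116 and 174 copies, a log2 ratio of 0.62 (0.27 to 0.97) with a Fisher exact FDR of 0.00191. It lay nearest to the threshold among the genes called, and 96.9% of its copies were on the tag that ends in 6 A. Its corrected log2 ratio was 0.10, and it was no longer called. The remaining abundant carriers differed little. Slc25a22, a glutamate carrier, had 488 and 541 copies. Slc25a23, an ATP-magnesium and phosphate carrier, had 451 and 448, and Slc25a20, the carnitine and acylcarnitine carrier, had 347 and 366. None of these 3 reached a Fisher exact FDR of 0.05.

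The vesicular transporters and the SLC6 family, which include many transmitter transporters, held 3 called genes. Slc17a7 (VGLUT1) and Slc17a6 (VGLUT2) load glutamate into synaptic vesicles. Slc17a7 had 108 copies with Scramble and 163 with RNAi (31.9 and 49.3 TPM). Slc17a6 had 50 and 30 copies (14.8 and 9.08 TPM). VGLUT1 thus had more copies and VGLUT2 fewer in the RNAi library. For Slc17a7 the log2 ratio was 0.63 (0.27 to 0.99) with a Fisher exact FDR of 0.0028, and after correction it was 0.97 and remained called. Of its 6 tags that reached 20 copies, 5 were higher and 1, at site 5, was lower with 14 and 12 copies. For Slc17a6 the log2 ratio was -0.70 (-1.40 to -0.02) with a Fisher exact FDR of 0.172, so it was not called. Slc17a6 made up 31.6% (24.5 to 39.5) of the joint copies with Scramble and 15.5% (10.7 to 21.4) with RNAi, a pair chosen after its values were seen. The most copied tags of the 2 genes at site 1 differ at 16 of 21 bases. Slc17a5, the lysosomal sialic acid exporter, had 33 and 18 copies and was not called, and the vesicular monoamine transporter Slc18a2 had 0 and 2.

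Among the sodium- and chloride-coupled transporters of the SLC6 family, the summed level of the 9 genes was 149 TPM with Scramble and 156 TPM with RNAi, a log2 ratio of 0.06 (-0.12 to 0.24). Slc6a17, a vesicular transporter of neutral amino acids in neurons, led with 216 and 229 copies. Slc6a8, the creatine transporter, had 134 and 174 copies, a log2 ratio of 0.41 (0.08 to 0.75) with a Fisher exact FDR of 0.0515. It was not called, although its 4 tags that reached 20 copies were all higher. After correction its log2 ratio was 0.24 with an FDR of 0.356 by the same exact test. The glycine transporter Slc6a9 (GlyT1) had 37 and 34 copies and was not called. Slc6a15, a neutral amino acid transporter of neurons, was lower, with 46 and 22 copies, a log2 ratio of -1.03 (-1.83 to -0.27) and a Fisher exact FDR of 0.0451. It was also called after correction, at -1.06, but not with TMM factors or DESeq2's size factors. Its tag at site 4, with 23 and 6 copies, held most of the difference. Slc6a5, the glycine transporter GlyT2 of inhibitory neurons, had 0 and 8 copies, all on a single tag, at least 2.73-fold higher against the level of 3 copies in the Scramble library. The Fisher exact FDR was 0.0238. The call of Slc6a5 held in 7 of 13 alternative settings. Among the settings that lost it were 1 copy added, and 1 copy put back for each tag not listed in a library. The GABA transporter Slc6a11 (GAT3), typical of astrocytes, had 4 copies with Scramble and was not listed with RNAi.

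Transporters of metal ions included the gene with the largest rise among those listed in both libraries and called, and the gene with the second largest fall. Slc39a5 is a zinc importer of the ZIP family, best known in pancreas, liver and intestine. It had 18 copies with Scramble and 52 with RNAi (5.31 and 15.7 TPM), a log2 ratio of 1.57 (0.77 to 2.43) with a Fisher exact FDR of 2.97e-04. The difference was spread over its tags. The printed tag had 9 and 15 copies, the tag at site 2 had 2 and 11, that at site 6 had 5 and 10, and that at site 7 had 2 and 9. The corrected ratio was 1.65, and Slc39a5 kept its call in 12 of 14 alternative settings. It lost the call with edgeR's exact test at assumed coefficients of variation of 0.2 and 0.4. Slc11a2 (DMT1) brings ferrous iron and other divalent metals into cells and out of endosomes. It had 63 copies with Scramble and 21 with RNAi (18.6 and 6.36 TPM), a log2 ratio of -1.55 (-2.34 to -0.82) with a Fisher exact FDR of 1.44e-04. Its most copied tag, at site 8 and ending in TG, had 37 and 8 copies, the tag at site 7 had 9 and 0, and that at site 1 had 11 and 3. All of these end in TG, one of the ends that were lower across all genes. The gene's tags with other ends had few copies. Those at sites 9, 12, 13 and 14 had 0 and 2, 0 and 3, 2 and 3, and 0 and 2, and that at site 4 had 2 and 0. The fall of Slc11a2 thus lay mainly on tags ending in TG, and whether it goes beyond the effect of that end was not tested. The corrected log2 ratio was -1.17 and still called, and the call held in 12 of 14 alternatives. Slc11a2, too, lost it with edgeR's exact test at 0.2 and 0.4. Its relative Slc11a1, known as a phagosome transporter of macrophages, had 188 and 179 copies. These copies sat mainly on repeats of AAAT, which were read as several near-identical tags at 1 site, so its level is uncertain.

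Zinc exporters of the SLC30 family gave 152 copies with Scramble and 182 with RNAi over 7 genes. Slc30a5, which moves zinc into the secretory pathway, had 70 and 105 copies, a log2 ratio of 0.62 (0.17 to 1.08) with a Fisher exact FDR of 0.0277. The corrected ratio of 0.45 was under the threshold, and the call was lost. Its printed tag had 49 and 78 copies, while its tag at site 3 had 13 and 13. Slc30a3 (ZnT3), which fills glutamatergic vesicles with zinc, had 0 and 6 copies and was not called. Slc39a1 and Slc39a6, both zinc importers, had 176 and 148 copies and 67 and 65 copies. Over all 22 metal transporters the summed level was 241 TPM with Scramble and 235 TPM with RNAi.

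Vitamin, choline and heme transporters summed to 224 TPM with Scramble and 230 TPM with RNAi over 11 identifiers, with 1 called gene in each direction. Slc48a1 (HRG1) exports heme from endosomes and lysosomes to the cytosol. It had 69 copies with Scramble and 132 with RNAi (20.4 and 39.96 TPM), a log2 ratio of 0.97 (0.54 to 1.41) with a Fisher exact FDR of 3.49e-05. The printed tag, which ends in GG, had 49 and 106 copies and held most of the rise, while the tag at site 2 had 11 and 12. Tags that end in GG had a median log2 ratio of -0.55 over all genes, and the corrected ratio of Slc48a1 was 1.40. It kept its call in 11 of 14 alternatives and lost it, among others, with edgeR's exact test at assumed coefficients of variation of 0.2 and 0.4. Slc44a3, a choline transporter-like protein, had 213 and 123 copies (62.9 and 37.2 TPM), a log2 ratio of -0.76 (-1.09 to -0.43) with a Fisher exact FDR of 1.13e-04, and -0.60 after correction. The identity of its tags is uncertain. The printed tag had 181 and 98 copies, the 5 others came from the same site, and a tag 1 base away was listed under another gene. The printed tag was found with at most 1 base changed, on either strand, in 97 of 33469 RefSeq promoters of 300 bases (assembly GRCr8). Whether its copies come from Slc44a3 mRNA alone was not tested. Among solute carriers, the most copied tags of Slc25a1, Slc29a3 and Slc7a6os also lay 1 base from a tag listed under another gene, and that of Slc10a2 (19 and 12 copies in all) was found unchanged in 54 of the promoters, so these genes are uncertain in the same way. Its relatives Slc44a2 and Slc44a1 were not called, with 39 and 55 copies for Slc44a2, and 63 and 42 and 10 and 19 copies for the 2 identifiers of Slc44a1. Slc49a4, a lysosomal membrane transporter, was the most copied of the group with 305 and 334 copies.

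**Figure D2:**
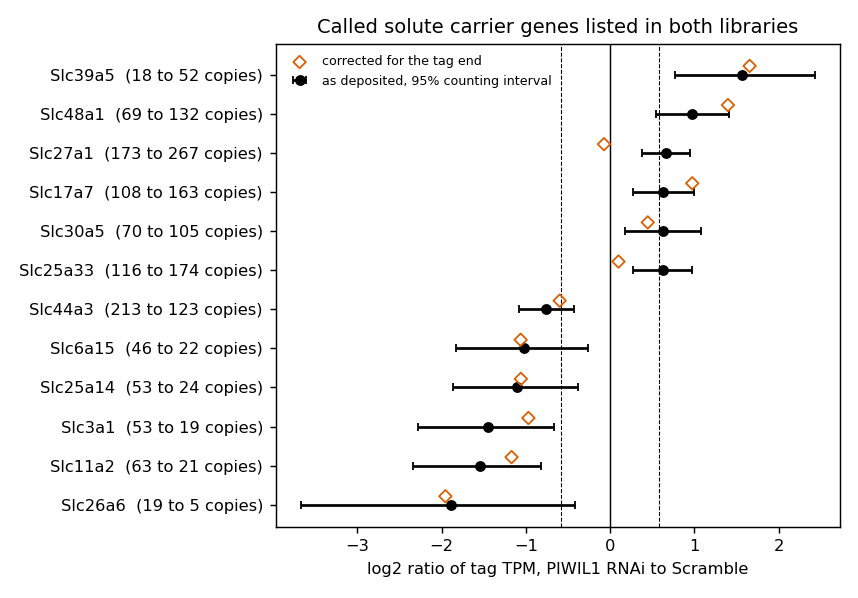
Log2 ratio of tag TPM, RNAi to Scramble, of the 12 called genes listed in both libraries, with the copies in each library beside the name. Points with bars are the deposited values with exact 95% counting intervals, diamonds are values corrected for the tag end, and dashed lines mark log2 ratios of 0.58 in either direction. The diamonds of Slc27a1, at -0.07, and Slc25a33, at 0.10, lie near 0.

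Amino acid and peptide transporters, 30 genes, summed to 510.5 TPM with Scramble and 524 TPM with RNAi, a log2 ratio of 0.04 (-0.06 to 0.13). Slc38a2 (SNAT2), a sodium-coupled importer of glutamine and other small neutral amino acids, had 514 and 617 copies (152 and 187 TPM). Its log2 ratio was 0.30 (0.13 to 0.47) with a Fisher exact FDR of 0.00183, under the threshold for a call. Its tag at site 1 had 442 and 565 copies. Slc7a5 (LAT1), the importer of large neutral amino acids, had 277 and 306 copies, and its heavy chain Slc3a2 (CD98) had 224 and 205, neither called. The other heavy chain, Slc3a1, which pairs with a light chain for cystine and basic amino acids in kidney, was lower with 53 and 19 copies. Its log2 ratio was -1.44 (-2.28 to -0.66) with a Fisher exact FDR of 0.00154. The printed tag, ending in TG, held 90.3% of its copies, and after correction the ratio was -0.97 with an FDR of 0.0975 by the same exact test, so the call was lost. The cystine-glutamate exchanger light chain Slc7a11 had 39 and 42 copies and Slc38a1 had 17 and 23.

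The 4 glutamate and neutral amino acid transporters of the SLC1 family taken here had few copies, 106 with Scramble and 87 with RNAi. Slc1a3 of the same family, which the rule left out, had 231 and 193. Slc1a1 (EAAT3), the glutamate transporter of neurons, had 14 and 20 copies. Slc1a5 (ASCT2) had 46 and 45, and Slc1a4 (ASCT1) had 19 and 10. Slc1a6 (EAAT4), known from cerebellar Purkinje cells, had 27 and 12 copies, a log2 ratio of -1.13 (-2.25 to -0.10) with a Fisher exact FDR of 0.116. None of these was called. Slc1a2, Slc39a10 and Slc4a1 are not analysed here.

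Transporters of carboxylates, fatty acids and organic ions, 18 genes, summed to 398 TPM with Scramble and 397 TPM with RNAi. Slc22a17, described as a receptor for the iron carrier lipocalin 2, had 578 and 451 copies (171 and 137 TPM). Its log2 ratio was -0.32 (-0.50 to -0.14) with a Fisher exact FDR of 0.00955, and the corrected FDR was 0.28 by the same exact test. Slc27a1 (FATP1), a fatty acid transport protein with acyl-CoA synthetase activity, had 173 and 267 copies (51.1 and 80.8 TPM). The ratio of 0.66 (0.38 to 0.95) had a Fisher exact FDR of 1.60e-05. Since 98.0% of its copies sat on tags with 5 or more A at the end, the corrected ratio was -0.07, of the opposite sign, and the call was lost. Slc27a4, another fatty acid transport protein, had 252 and 289 copies. The monocarboxylate transporter Slc16a1 (MCT1) had 23 and 17 copies, and the neuronal Slc16a7 (MCT2) had 5 copies with Scramble and was not listed with RNAi.

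Nucleoside and nucleotide sugar transporters, 23 genes, summed to 514 TPM with Scramble and 480 TPM with RNAi, a log2 ratio of -0.10 (-0.20 to -3.7e-04), which was -0.0049 with TMM factors and -0.021 after correction. Slc35f1, an orphan member expressed in brain, had 275 and 204 copies and a log2 ratio of -0.39 (-0.66 to -0.13), with a Fisher exact FDR of 0.0392. It was under the threshold for a call, and its 5 tags that reached 20 copies were all lower. Slc29a4 (PMAT), a transporter of monoamines in the equilibrative nucleoside family, had 252 and 218 copies. Its tags were divided, with 128 and 69 copies at site 1 and 33 and 38 at site 7, and the corrected log2 ratio was 0.00. Slc29a2 (ENT2), an equilibrative nucleoside transporter, had 0 and 7 copies on 3 tags, at least 2.39-fold higher, with a Fisher exact FDR of 0.0424 that became 0.0531 after correction. Slc35f5 had 28 and 50 copies, a log2 ratio of 0.87 (0.18 to 1.59) with a Fisher exact FDR of 0.052. After correction its ratio was 1.03 and it was called, a gene singled out after its values were seen.

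**Figure D3:**
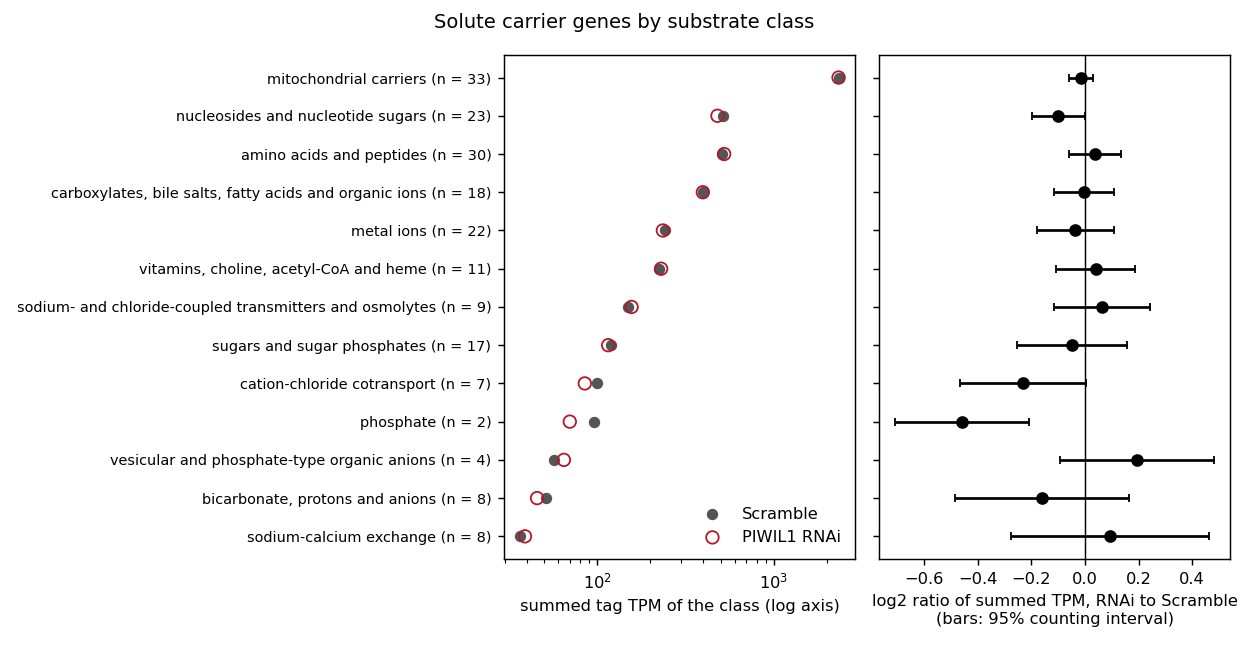
Left, summed tag TPM of each substrate class in the Scramble library (filled) and the RNAi library (open), on a log axis, with the number of genes in each class. Right, log2 ratio of the summed TPM with exact 95% counting intervals; the intervals of phosphate transporters, at -0.46, and of nucleoside and nucleotide sugar transporters, at -0.10, exclude 0.

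The 2 phosphate transporters of the SLC20 family both had fewer copies with RNAi, summing to 95.7 TPM with Scramble and 69.6 TPM with RNAi, a log2 ratio of -0.46 (-0.71 to -0.21). Slc20a1 (PiT1), the sodium-phosphate cotransporter, supplied 93.7% of these copies, with 303 and 216. Its own log2 ratio was -0.45 (-0.71 to -0.20) with a Fisher exact FDR of 0.00895, the closest to the threshold from below among genes with an FDR of 0.05 or less. Its tag at site 1 had 241 and 176 copies, and its tag at site 2, ending in GG, had 45 and 16. After correction the ratio was -0.26 with an FDR of 0.302 by the same exact test. Slc20a2 had 21 and 14 copies.

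The cation-chloride cotransporters set the chloride gradient on which GABA acts, with Slc12a2 (NKCC1) bringing chloride in and Slc12a5 (KCC2) taking it out. The 7 genes summed to 99.5 TPM with Scramble and 84.8 TPM with RNAi, a log2 ratio of -0.23 (-0.47 to 0.0016), and none was called. Slc12a2 had 86 and 63 copies, and Slc12a5 had 10 and 13. Slc12a5 was 10.4% (5.11 to 18.3) of their joint copies with Scramble and 17.1% (9.43 to 27.5) with RNAi, intervals that overlap. In Slc12a2 the tag at site 1 had 53 and 51 copies and the tag at site 2, ending in TG, had 21 and 4. The potassium-chloride cotransporter Slc12a7 (KCC4) had 101 and 78 copies.

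Bicarbonate, proton and anion exchangers, 8 genes, summed to 50.8 TPM with Scramble and 45.4 TPM with RNAi. The bicarbonate exchangers Slc4a2 and Slc4a3 had 44 and 30 and 18 and 15 copies. Slc26a6, an anion exchanger best known from epithelia, was lower with 19 and 5 copies. Its log2 ratio was -1.89 (-3.67 to -0.42) with a Fisher exact FDR of 0.0433. The corrected FDR was 0.0565 by the same exact test, so the call was lost at -1.96, and it was lost with TMM factors as well.

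Sugar transporters and the sodium-calcium exchangers had no called gene. The 17 genes of the sugar group summed to 119 TPM with Scramble and 115 TPM with RNAi. Slc45a1, a proton-coupled sugar transporter of brain, had 109 and 82 copies, and Slc2a8 (GLUT8) had 50 and 60. Slc5a6, grouped here by family although it carries vitamins, had 65 and 79. The glucose transporter Slc2a1 (GLUT1) had 52 and 42 copies, while the neuronal Slc2a3 (GLUT3) had 2 and 2, which is under the level set as detectable. The sodium-calcium exchangers summed to 36.3 TPM with Scramble and 38.8 TPM with RNAi over 8 genes. The potassium-dependent Slc24a5 had 60 and 47 copies, Slc24a3 had 42 and 58, Slc8a3 had 12 and 10, and Slc8a1 had 3 and 2. The tags of Slc24a5 went apart, with 29 and 35 copies at site 1 and 31 and 12 at site 2, the latter ending in GT.

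**Figure D4:**
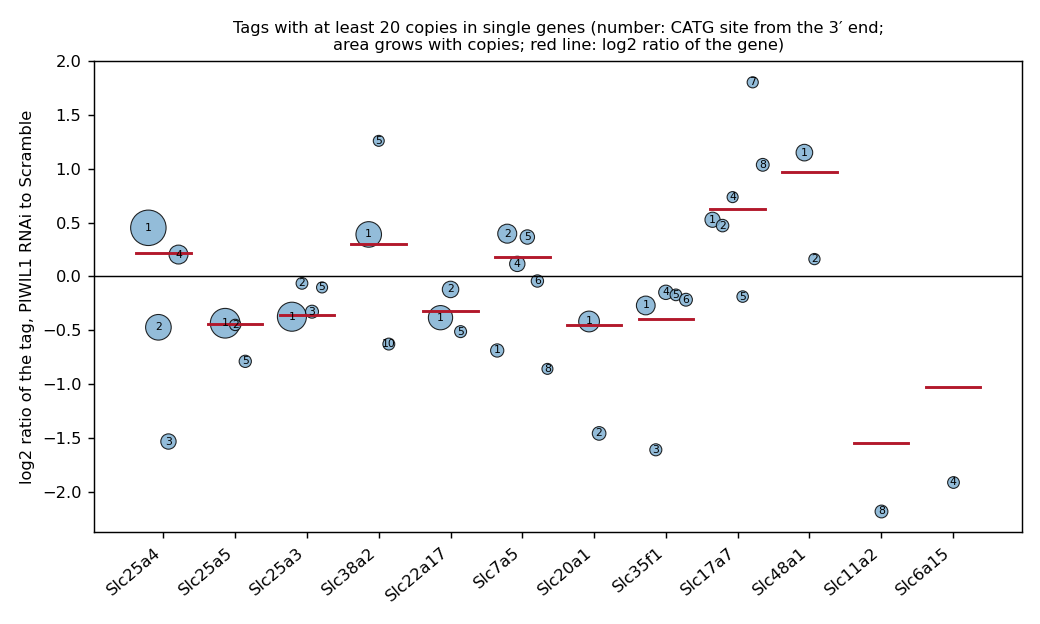
Log2 ratio of single tags with at least 20 copies, RNAi to Scramble, in 12 solute carrier genes. The number in each circle is the CATG site counted from the 3′ end, circles grow with copies, and the red line is the ratio of the whole gene. In Slc25a4 the tags at sites 2 and 3 lie below 0 while the tag at site 1 lies above it.

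The pumps and partners that transporters depend on were listed for 32 of 35 genes, with a median log2 ratio of 0.047, and 14 were below 0. Of these 32, 2 were called lower, against 5.97% of all genes, and 0 were called higher by Fisher's exact test, against 2.96%. Without the ratio threshold, 13 of the 32 had a Fisher exact FDR of 0.05 or less, against 16.7% of all genes. Of the 13, 4 had a ratio below 0 and 9 a ratio above 0. The partners were not matched to all genes for depth, so no trait of the partners is read from this share. An unadjusted Fisher exact p under 0.05 was reached by 6 partners with a ratio below 0 and 10 with a ratio above 0. The share of all genes with such a p is not given here, so nothing about the partners is read from these counts. Atp1b1, the β1 subunit of the sodium-potassium ATPase, had 425 and 213 copies, a log2 ratio of -0.96 (-1.20 to -0.72) with a Fisher exact FDR of 1.33e-13, and remained called at -0.75 after correction. Atp6v1g1, a G subunit of the vacuolar proton ATPase, had 813 and 406 copies, a log2 ratio of -0.97 (-1.14 to -0.79) with a Fisher exact FDR of 4.18e-26. Its most copied tag ends in GT, and the corrected ratio was -0.54, under the threshold. The 16 listed genes of the vacuolar ATPase had a median of 0.13. The mitochondrial pyruvate carrier gene Mpc1 had 812 and 1134 copies, a log2 ratio of 0.52 that was under the threshold, and Mpc2 had 223 and 224.

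All 6 neuronal markers were listed in both libraries, with a summed level of 3915 TPM with Scramble and 3608 TPM with RNAi. Stmn2 (2210 and 1719 TPM), Tubb3 and Nefl were lower, while Gap43 (788 and 1072 TPM), Dcx and Syp were higher. Nefl had only 6 and 2 copies. Markers of other cells were listed too. The 5 radial glia markers summed to 1003 and 1298 TPM, where Vim was higher (790 and 1127 TPM) and the other 4 were lower. The 4 fibroblast markers summed to 434 and 416 TPM. For astrocytes 4 of 6 markers were listed, at 88.6 and 80.5 TPM, with Aqp4 and Gjb6 not listed, and for the oligodendrocyte lineage 6 of 6, at 9.16 and 7.57 TPM. For microglia 3 of 5 were listed, at 15.9 and 18.5 TPM, with Cx3cr1 and Ptprc not listed, and for erythroid cells 2 of 3, at 8.56 and 12.7 TPM. For endothelium 1 of 4 was listed, at 0 and 0.61 TPM. No marker was called, and the part of these cells in the solute carrier differences was not tested. In bulk RNA, fewer cells of a type and less RNA per cell cannot be told apart.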

How the data were processed

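The mRNA of 1 Scramble control library and 1 PIWIL1 RNAi library was read as 21-base CATG tags. The authors deposited, for each gene, tag counts (the copies of each tag and their sum, not normalized) and TPM, copies scaled to each library's clean tags and not to length. The submitters' processing notes name the rn4 build; the program that matched tags to genes is not given in the sources used here, no coordinates are used, and tags with 1 copy were not listed. Symbols came from a RefSeq table by accession for 189 genes and from the deposited description for 4. Substrate classes follow family numbers.

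Counts of each gene were set against all other copies on genes by Fisher's two-sided exact test, with Benjamini-Hochberg adjustment over 9894 genes. Calls needed an FDR of 0.05 or less and a log2 ratio of TPM of at least 0.58, which genes listed in only 1 library passed. With 1 library per group, the test holds counting error only. The correction for the tag end took out the median log2 ratio of each class of tag ends (the last 2 bases, or the length of an A run of 3 or more), with medians from genes of odd rank applied to those of even rank and the reverse. The test and the correction were tested on simulated data.

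The genes named are all called ones, the 3 most copied of each class, a fixed list of neuronal and glial transporters, the genes nearest the ratio threshold and called partner genes; a few others were named after their values were seen. Some genes of this rule are not reported here by name. The members and lists were chosen with earlier results of these data known. Alternatives were TMM and DESeq2 factors, clean tags as totals, edgeR's exact test with an assumed coefficient of variation, minimum copies, added copies, copies per symbol, exclusion of tags with 8 or more A at the end, the tag-end correction and other thresholds. Python 3.11.15, NumPy 2.4.6, pandas 2.3.3, SciPy 1.17.1, Matplotlib 3.10.9, R 4.3.3, edgeR 4.0.16 and DESeq2 1.42.0 were used.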

Additional observations from a re-analysis of the deposited data

How the results depend on the processing

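The counts of called genes depended on the error assumed. With edgeR's exact test, 2 solute carriers were lower and 2 higher at an assumed coefficient of variation of 0.1. At 0.2 and at 0.4 there were 0 lower and 0 higher. Fisher's exact test had 37 with an unadjusted p under 0.05, for which the share of all genes is not given here. It had 21 with an FDR of 0.05 or less (10.9%, against 16.7% of all genes). With the ratio threshold as well it had 6 lower and 8 higher. Over all genes edgeR's counts were 170 lower and 114 higher at 0.1, 2 and 15 at 0.2, and 0 and 0 at 0.4. An FDR of 0.001 left 2 lower and 3 higher, against 257 and 163 over all 9894 genes. A log2 threshold of 1 left 5 lower and 3 higher, against 262 and 146 over all genes. With the correction for the tag end there were 4 lower and 5 higher, and 1 of the latter, Slc35f5, was not called without it. With 1 copy added there were 4 lower and 6 higher, against 544 and 260 over all genes. Over all genes, 591 were lower and 293 higher, which became 459 and 398 with TMM factors and 475 and 382 with DESeq2's size factors. The log2 ratio of the summed mitochondrial carriers was 0.080 with TMM factors, 0.070 with DESeq2's size factors and -0.064 after the correction for the tag end, and that of carboxylate, fatty acid and organic ion transporters was -0.12 after the correction. Slc27a1 changed sign after the correction, to -0.074. For single named genes, 804 of the recomputed values kept their call or stayed without one, 69 lost the call and 1 was reversed. Direction was compared only where the gene was called in the main or the alternative setting. Genes not called could change sign among the 804, as Slc11a1 did from -0.035 to 0.060 with TMM factors. Calls for Slc11a2 and Slc39a5 held in 12 of 14 alternatives, the most among the called genes. That of Slc17a7 held in 9 of 14, those of Slc6a15 and Slc26a6 in 6 of 14, and that of Slc29a2 in 6 of 13. Most alternatives rescale or re-threshold the same 2 libraries, so these tallies do not stand in for replicates. At this depth a gene listed only with Scramble needed 8 copies for a call, and 1 listed only with RNAi needed 7. No paired analysis was possible because each group had 1 library.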
